A study of Mus musculus with 6 samples.

Results

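The genes of microRNA processing and of the Argonaute complex were followed in CD4+ T cells of the mouse, the helper T lymphocytes, in a study of a synthetic miR-155 oligonucleotide. miR-155 is a microRNA of activated lymphocytes. The set was named by symbol and held 10 genes, Dgcr8, Drosha, Dicer1, Xpo5, Tarbp2, Ago1, Ago2, Ago3, Ago4 and Tnrc6a. Of these, 6 were matched by their RefSeq transcript accession to a row among the 13177 rows of the count table. Drosha, Ago1, Ago3 and Ago4 could not be matched to a row and are not analysed here. The set was chosen by symbol with the counts of these same 6 libraries and their difference between 8 h and control in view, and Dgcr8 had already been singled out for that difference. The levels of the set and its differences between the groups are therefore a description, and the fitted values below support no claim about the choice of genes.

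The cells were isolated on magnetic beads, given the oligonucleotide and sequenced from total RNA in 6 libraries. There were 3 libraries labelled control, described as collected at 0 h, and 3 collected at 8 h. The treatment label of all 6 names the miR-155 oligonucleotide, the controls included, and no library was collected at 8 h without it, so time and exposure cannot be told apart. Each 8 h sample is described as CD5+ in one label and as CD4+ in another, and the sources used here do not give the strain, sex or age of the mice. The labels do not say whether replicates were separate animals or cultures, so any p-value measures only the spread between these libraries, which may be technical.

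Libraries held 4564010 to 13675127 counts. T cell transcripts were present but uneven among the 11 markers listed. Cd3e, a chain of the T cell receptor complex, had 256 to 11475 counts and Cd5 had 3020 to 27651. Cd3d, Cd3g, Cd2 and Lat lay between 77 and 73937 counts, and Lck ran from 171 to 162085. Cd4 itself had 5 to 10 counts in every library. Zap70 had 2 to 17, Cd247 had 3 to 16 and Cd28 had 9 to 124. Actb, the abundant cytoskeletal actin, had 1 to 5 counts, so what a row counts is uncertain and every level below carries that limit. In bulk RNA, fewer cells of a type and less RNA per cell cannot be told apart.

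A microRNA is cut from a hairpin in a longer transcript in the nucleus by Microprocessor, made of the RNase III enzyme Drosha and its RNA-binding partner Dgcr8. Exportin 5, the product of Xpo5, carries the trimmed hairpin to the cytoplasm with Ran-GTP, and there Dicer1 with the double-stranded RNA binding protein Tarbp2 cuts off its loop. One strand is kept by an Argonaute protein, of which Ago2 is the member known to slice targets, and Tnrc6a links Argonaute to the deadenylases that shorten the target. In T cells, loss of Dicer1 or of Drosha is known to impair helper cell differentiation and regulatory T cell function.

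The hairpin of miR-155 shows what these proteins act on. It is given as RNA from RefSeq (GRCm38.p6, chr16:84714140-84714204, plus strand), with its 5p and 3p arms in capitals, followed by the mature 5p arm with its seed, bases 2 to 8, in capitals. The deposited counts do not measure either RNA, and delivery of the oligonucleotide was not checked here.
Mir155 hairpin: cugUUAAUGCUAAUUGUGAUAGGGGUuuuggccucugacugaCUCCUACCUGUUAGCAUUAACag
mmu-miR-155-5p: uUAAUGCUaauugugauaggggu

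Dgcr8 is itself a source of such a hairpin. Mir1306 lies on the minus strand of chromosome 16 (chr16:18284239-18284317, GRCm38.p6), wholly within the coding part of exon 2 of the Dgcr8 transcript counted here, and its arms are in capitals below. Cleavage of Dgcr8 mRNA at its own hairpins by Microprocessor is a known feedback on Dgcr8. The hairpin of miR-3618 lies in the same exon, outside the coding part.
Mir1306 hairpin: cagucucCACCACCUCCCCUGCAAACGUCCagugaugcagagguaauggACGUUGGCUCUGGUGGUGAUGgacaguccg

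The 7 letters AGCATTA, the DNA match to the miR-155-5p seed, were searched on the sense strand of the annotated 3' UTRs. Among the 6 matched genes Ago2 alone held a match, and it held 1. That site (chr15:73099268-73099289, minus strand, GRCm38) is shown with the match in capitals, and is followed by an A, which makes it the 8mer type.
Ago2 site: agagggtacaattcAGCATTAa
Long UTRs hold such letters often. A match was present in 7.12% of 12561 UTRs of the table's rows, and in 38.5% of the 309 UTRs of at least 5000 bases, while the UTR of Ago2 spans 11064 bases. The match is a description of letters and not a tested site.

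Dgcr8 (chromosome 16, 18253948 to 18289246, minus strand, GRCm38) had few counts, and nearly all of them came from the 8 h libraries. Controls 1 to 3 held 0, 1 and 6 counts. The 8 h libraries 1 to 3 held 27, 44 and 65. Every 8 h library lay above every control. The largest control count of 6 has an exact Poisson 95% interval of 2.20 to 13.1 counts and the smallest 8 h count of 27 one of 17.8 to 39.3, intervals that cover counting error only. The count of 0 in control 1 allows a level of up to 0.530 CPM (each count as a rate per 1000000 counts, with library sizes scaled by edgeR's TMM method), taking 3 counts as the limit. In CPM, Dgcr8 stood at 0.245 ± 0.273 (SD, n = 3) in controls and 5.21 ± 3.50 (SD, n = 3) at 8 h.

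The fit of edgeR over all 8308 rows with enough counts gave Dgcr8 a log2 fold change of 4.22 ± 1.54 (SE; edgeR adjusted p = 0.434). Leaving out 8 h replicate 3 gave 3.52, the lowest value with 1 library left out, and leaving out control replicate 3 gave 5.58, the highest. Summed levels of some marker lists also differed between the groups in the same libraries, and those of others overlapped. The T cell list held 3350 to 19100 CPM in controls and 5320 to 12200 at 8 h. The B cell list held 40.5 to 98.8 against 35.7 to 104, with Ms4a1 alone separate, higher at 8 h. The CD8 and natural killer list held 57.1 to 1750 against 60.8 to 150, with Klrb1c alone separate, lower at 8 h. In control 3 Nkg7, of the last list, had 18478 counts. The 7 widely used reference transcripts summed to 12300 to 24900 CPM in controls and 139 to 3030 CPM at 8 h. Groups were separate for 3 of the 7, B2m, Eef1a1 and Tbp, all lower at 8 h. Ppia led in control 1 with 101998 counts, and Eef1a1 in controls 2 and 3 with 62414 and 131367. Ppia overlapped, with 30970 counts in 8 h library 2. Hprt had 1175, 46 and 428 counts in controls against 107, 9030 and 209 at 8 h. Gapdh had 1 to 11 counts. The 8 myeloid markers summed to 48.6 to 61.3 CPM in controls and 7.68 to 14.4 CPM at 8 h, but 0 of the 8 had separate groups. A different myeloid gene led in each control, Adgre1 with 331 counts in control 1, Cd14 with 189 in control 2 and Fcgr1 with 336 in control 3. Itgam had 1, 3 and 1 counts in controls against 36, 1 and 7 at 8 h, and S100a9 had 2, 3 and 0 against 21, 11 and 2. The 6 matched erythroid and platelet markers summed to 20.9 to 129 CPM in controls and 2.70 to 11.0 CPM at 8 h, with separate groups for 1 of them, Alas2. No marker of either list was at 0 in all 6 libraries, though the macrophage marker Adgre1 and the erythroid enzyme gene Alas2 were each at 0 in 8 h libraries 1 and 3, and the platelet gene Pf4 in controls 1 and 2 and 8 h library 2. The part of these differences in the values of Dgcr8 was not tested.

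**Figure D1:**
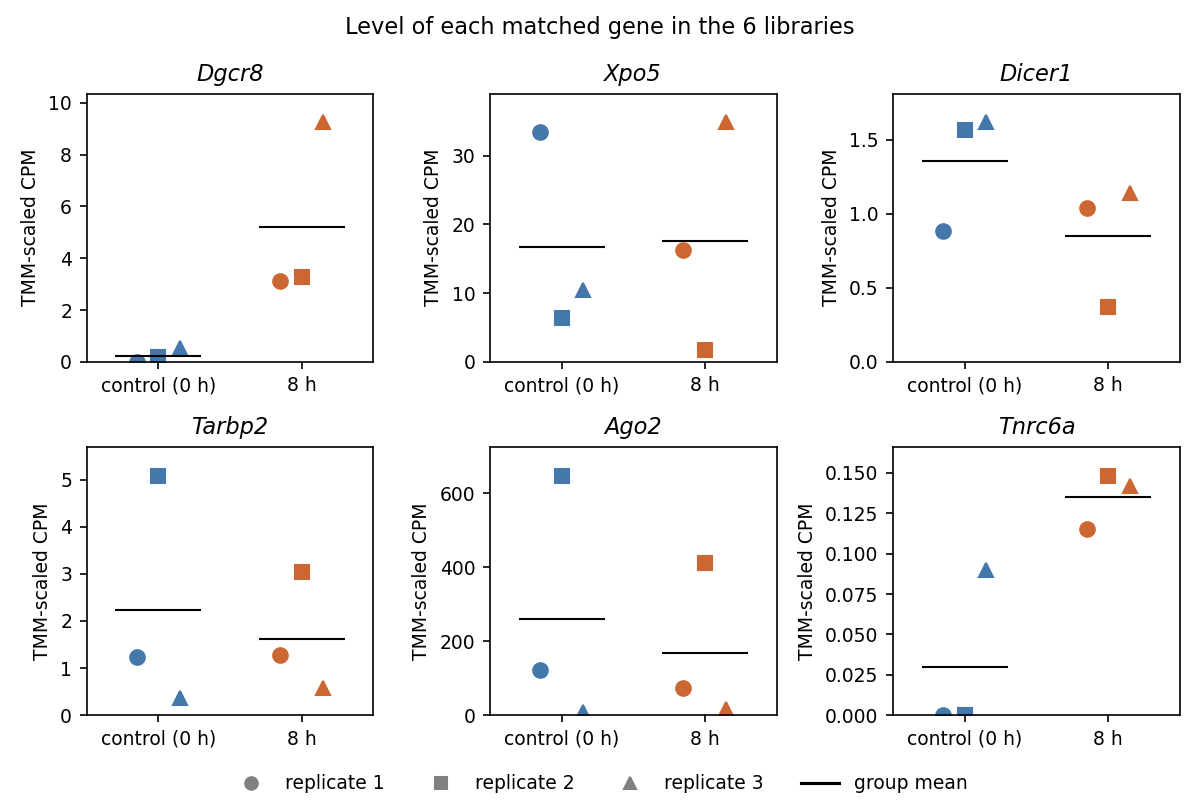
TMM-scaled CPM of each matched gene in the 3 control (blue) and 3 8 h (orange) libraries, 1 panel per gene with its own axis from 0; marker shapes give the replicate number and bars the group mean. Dgcr8 lies between 0 and 0.539 CPM in controls and between 3.12 and 9.25 CPM at 8 h, whereas the groups overlap for Xpo5, Dicer1, Tarbp2 and Ago2.

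Rows of genes within 20 kb of the matched genes numbered 14, and 3 of them, Ranbp1 and Trmt2a beside Dgcr8 and Clmn beside Dicer1, had all 3 libraries at 8 h above the 3 controls, as did 5.78% of all rows. Clmn had 2, 1 and 2 counts in controls against 21, 10 and 447 at 8 h. Ranbp1, which encodes a Ran-binding protein of nuclear transport, lies on the same strand 5215 bases from Dgcr8 (18239784 to 18248732). Its controls 1 to 3 held 253, 53 and 2391 counts, against 2805, 630559 and 46899 in 8 h libraries 1 to 3. Trmt2a, a tRNA methyltransferase gene on the opposite strand, overlaps the end of Dgcr8 by 825 bases and had 0 to 2 counts in any library. All of these lie under the limit of 3 counts. Control 3 and 8 h library 3 each held 1, so only their library sizes set them apart. On the other side Tango2, 11578 bases away, had 28, 193 and 560 counts in controls and 66, 344 and 67 counts at 8 h, with overlapping groups. Zdhhc8, 18811 bases beyond the other end, had 12, 28 and 20 counts against 29, 252 and 26, and its groups overlapped in CPM.

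Xpo5 (chromosome 17, 46202782 to 46243598, plus strand) had overlapping groups. Its counts were 189, 33 and 117 in the 3 controls, against 141, 23 and 245 in the 3 libraries at 8 h. In CPM these were 33.4, 6.46 and 10.5 against 16.3, 1.71 and 34.8, so the lowest and the highest library were both 8 h libraries. The edgeR log2 fold change was 0.08 ± 1.69 (SE). The sign turned when control replicate 2 (-0.31), control replicate 3 (-0.16) or 8 h replicate 3 (-0.89) was left out. Within the 8 h group the highest library was 20.4 times the lowest, and within the controls 5.17 times. The median of that ratio over tested rows with counts in all libraries of the group was 10.4 at 8 h and 9.84 in controls, and the ratios of Xpo5 exceeded those of 68.1% and 29.5% of the rows.

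Dicer1 (chromosome 12, 104687742 to 104751952, minus strand) was too low to enter the fit. It had 5, 8 and 18 counts in controls and 9, 5 and 8 counts at 8 h. The CPM were 0.883, 1.57 and 1.62 in controls and 1.04, 0.371 and 1.14 at 8 h, and the groups overlapped through control 1 alone. Tarbp2 (chromosome 15, 102518192 to 102523676, plus strand), the partner of Dicer1, was also below the filter. Its counts were 7, 26 and 4 in controls and 11, 41 and 4 at 8 h, or 1.24, 5.09 and 0.360 CPM against 1.27, 3.04 and 0.569 CPM. In each group library 2 was the highest and library 3 the lowest.

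Ago2 (chromosome 15, 73095844 to 73184935, minus strand) varied far more within the groups than between them. Its counts were 692, 3313 and 104 in the 3 controls, against 638, 5558 and 119 in the 3 libraries at 8 h. The CPM were 122, 648 and 9.35 in controls and 73.7, 412 and 16.9 at 8 h, so that the highest control was 69.3 times the lowest. This ratio exceeded that of 89.7% of the 7544 tested rows with counts in all 3 controls. At 8 h the highest library was 24.4 times the lowest, above 71.9% of the 7774 tested rows with counts in all 3 libraries. The edgeR log2 fold change was -0.63 ± 1.95 (SE), -2.49 without 8 h replicate 2 and 1.40 without control replicate 2. Chrac1, on the opposite strand, overlaps Ago2 by 1711 bases and had 118 to 2745 counts. It was highest in control 3, where Ago2 was lowest. Whether the counting used strand is not given in the sources used here, so reads from the overlap cannot be assigned.

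**Figure D2:**
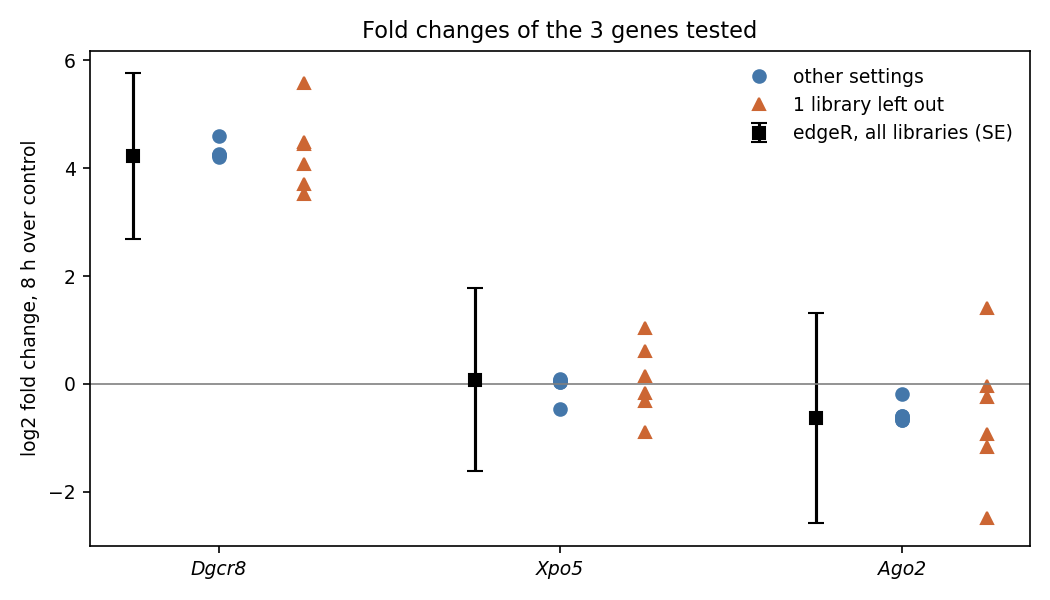
Log2 fold change of 8 h over control for the 3 genes with enough counts for the fit; black squares give edgeR's value with its SE, blue circles the other settings and orange triangles the fits with 1 library left out. Dgcr8 lies between 3.52 and 5.58 in every alternative that gave a value, whereas Xpo5 and Ago2 fall on both sides of 0.

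Tnrc6a (chromosome 7, 123123885 to 123195296, plus strand) was barely detected, with 0, 0 and 1 count in controls and 1, 2 and 1 counts at 8 h. Both groups were at or under the limit of 3 counts per library, so no fold is given. Gm45846, a long intergenic RNA gene on the same strand, overlaps it.

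Of the 3 tested genes of the set, edgeR's quasi-likelihood test called 0 at a Benjamini-Hochberg adjusted p under 0.05, as it did for 0.0% of all 8308 rows. At an unadjusted p under 0.05 it gave 1 of the 3, Dgcr8, against 8.53% of tested rows. DESeq2, run as an alternative, called the same 1 gene, against 6.06% of the 6588 rows to which it gave an adjusted p. The 3 libraries of one group lay above the 3 of the other for 2 of the 6 matched genes, Dgcr8 and Tnrc6a, both higher at 8 h, against 10.8% of all rows in either direction and 5.78% with the 8 h group higher. Nothing is read from these counts, because the contrast was known when the set was named and the counts of Tnrc6a reached 2 at most.

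Levels of different genes were compared per kilobase of the counted transcript. Averaged over the 6 libraries, Ago2 stood at 15.5 ± 18.8 CPM per kilobase (SD, n = 6), Xpo5 at 3.38 ± 2.75, Tarbp2 at 1.51 ± 1.42, Dgcr8 at 0.631 ± 0.812, Dicer1 at 0.112 ± 0.0469 and Tnrc6a at 0.0101 ± 0.00823. Neighbours in this order from Ago2 to Dicer1 did not differ beyond their spread, and their order changed between libraries. Ago2 led in 4 libraries, and Xpo5 led in control 3 and in 8 h library 3. Tarbp2 lay above Xpo5 in library 2 of each group. Dicer1 lay above Dgcr8 in all 3 controls and below it in all 3 libraries at 8 h. In the controls that order rests on 0, 1 and 6 counts of Dgcr8 against 5, 8 and 18 of Dicer1. The difference of Dgcr8 between the groups was known when the set was named, so nothing is read from the exchange. Tnrc6a, with 0 to 2 counts, was at or under the limit of 3 counts in every library, so its place in the order rests on very few reads.

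**Figure D3:**
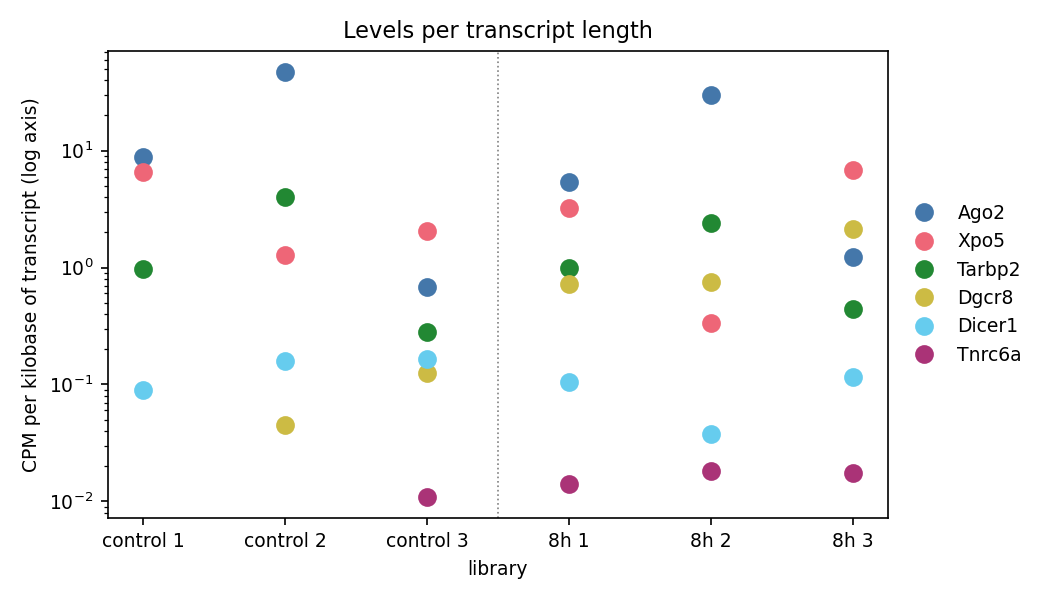
CPM per kilobase of transcript (log axis) of the 6 matched genes in each library, controls left and 8 h libraries right of the dotted line; values of 0 (Dgcr8 in control 1, Tnrc6a in controls 1 and 2) cannot be drawn. Ago2 and Xpo5 exchange the top place, and Dgcr8 lies below Dicer1 in the controls and above it at 8 h. In the controls Dgcr8 had 0, 1 and 6 counts and Dicer1 had 5, 8 and 18.

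Ago2 was uneven and made up most of the summed level of the set in some libraries but not in all. The 6 genes together held 158, 662 and 22.5 CPM in the 3 controls and 95.5, 421 and 62.9 CPM at 8 h. Ago2 made up 26.9% of that sum in 8 h library 3 and 41.6% in control 3. Its share was 77.5% in control 1, 77.1% in 8 h library 1 and 98.0% in library 2 of each group. Without Ago2 the sum was 35.5, 13.3 and 13.1 CPM in controls and 21.8, 8.53 and 45.9 CPM at 8 h, and the groups overlapped.

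Ago2 and Tarbp2 varied together across the libraries, whichever group they came from. Over the 6 libraries Pearson's r of log2 CPM was 0.981 (exact permutation p = 0.00556, two-sided) and Spearman's rho 0.943 (exact permutation p = 0.0167). Adjusted over the 10 pairs of the 5 genes with more than 3 counts in some library, these were exact permutation p values of 0.0556 and 0.167, which miss 0.05. Without controls 2 and 3, the libraries farthest from the median of Tarbp2, r was 0.975 over the remaining 4. Those still held 8 h libraries 2 and 3, the highest and the lowest at 8 h for both genes. This value therefore cannot show whether a few extreme libraries set r. Tarbp2 had only 4 counts in control 3 and in 8 h library 3, each with a Poisson 95% interval of 1.09 to 10.2. The other 9 pairs had r between -0.606 (Xpo5 and Tarbp2) and 0.472 (Dicer1 and Xpo5), with adjusted exact permutation p values from 0.676 to 0.929. All values of a library share its depth and scaling, and 3 libraries per group are too few for a value within a group. Both genes lie on chromosome 15, far apart at the positions given above, and any part of their location in r was not tested.

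**Figure D4:**
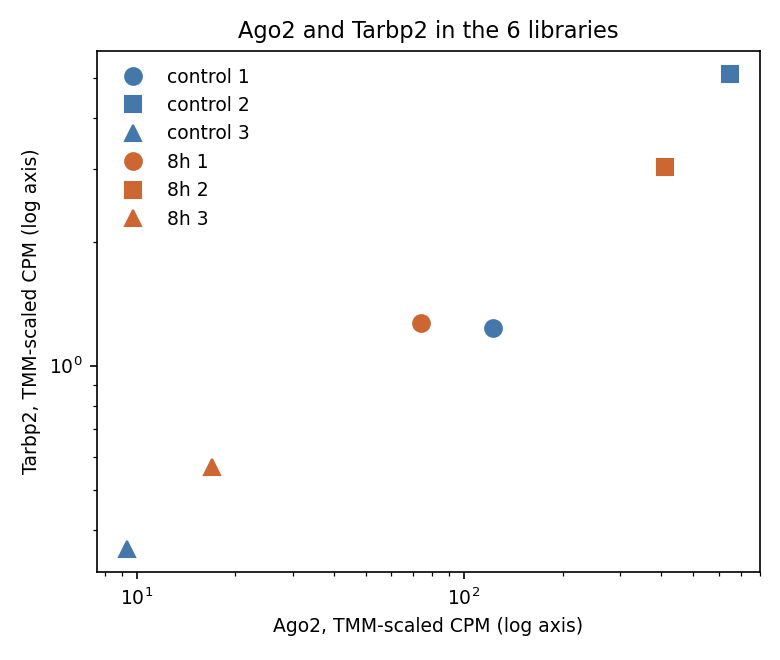
TMM-scaled CPM of Ago2 and Tarbp2 in each library (both axes log; blue controls, orange 8 h; shapes give the replicate number). The libraries numbered 2 lie at the top, at 648 and 412 CPM of Ago2, and those numbered 3 at the bottom, in both groups.

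Rows most alike in pattern to single members were also listed. Among up to 5966 tested rows with a mean of at least 5 CPM, those most like Ago2 over the 6 libraries were Sugt1 (r = 0.987), a cochaperone of HSP90, Cdc25b (r = 0.975), a phosphatase that activates cyclin-dependent kinases, and Ogn (r = 0.968), a matrix proteoglycan. For Xpo5 they were Prl4a1 (r = 0.985), Septin3 (r = 0.973) and Tmco1 (r = 0.963). For Dgcr8 they were Timm50 (r = 0.990), a subunit of the mitochondrial import machinery, Pof1b (r = 0.989) and Slc25a38 (r = 0.983), a mitochondrial glycine carrier. Timm50 had 20, 57 and 178 counts in controls and 806, 2623 and 3083 counts at 8 h. An r over 0.9 was reached by 40 rows for Ago2, 23 for Xpo5 and 62 for Dgcr8. These r values rank rows by likeness and carry no test.

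The rest of the pathway was taken from 5 lists drawn up by role, with 65 genes, of which 52 were matched and 26 had enough counts. Of these 26, 16 lay higher at 8 h and 10 lower, beside 4263 higher and 4045 lower over all tested rows, and edgeR's quasi-likelihood test called 0. At an unadjusted p under 0.05 it gave 1, against 8.53% of tested rows, and DESeq2 also called 1 of the 24 with an adjusted p, against 6.06%. That gene was Ranbp1 in both cases. Over the 52 matched genes, 7 had all libraries at 8 h above the controls and 1 had all below. Of all rows, 10.8% were separate in either direction and 5.78% with the 8 h group higher. Only 3 of the 7 were among the 26 tested genes, and the rest had too few counts for the fit. The median log2 fold change of the 26 was 0.49, beside 0.06 over all 8308 tested rows.

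Among nuclear cofactors of Microprocessor, 3 of 10 genes were tested, 2 higher and 1 lower at 8 h. Srrt, which links the cap-binding complex to processing of primary transcripts, had 3042, 2860 and 7736 counts in controls and 947, 215 and 158 counts at 8 h. Every 8 h library lay below every control, and the log2 fold change was -3.60 ± 2.22 (SE; edgeR adjusted p = 0.649). Ncbp1, the large subunit of the cap-binding complex, had a log2 fold change of 2.19 ± 1.85 (SE), with overlapping groups and 2302 counts in 8 h library 3 alone. Ddx5 and Ddx17, RNA helicases of Microprocessor, had too few counts to be tested.

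In the list of nuclear export 4 of 5 genes were tested, 3 higher and 1 lower at 8 h. Ran, the small GTPase that loads exportin 5, had 0 to 3 counts and was not tested. Of the tested genes, Ranbp1 and Rcc1 had all 3 libraries at 8 h above all 3 controls, against 5.78% of all rows. Ranbp1, with the counts given above, had a log2 fold change of 7.64 ± 3.26 (SE; edgeR adjusted p = 0.511). Rcc1, the exchange factor that makes Ran-GTP, had 183, 13 and 124 counts in controls and 673, 2212 and 770 counts at 8 h. Its log2 fold change was 2.94 ± 1.89 (SE; edgeR adjusted p = 0.667). Neither passed edgeR's test. The groups overlapped for the other tested genes, Rangap1 at 0.48 ± 1.16 (SE) and Xpo1 at -0.65 ± 1.29 (SE).

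For the partners of Dicer1 and the chaperones that load Argonaute, 7 of 13 genes were tested, of which 5 lay higher at 8 h and 2 lower. None of the 7 was called by edgeR or DESeq2, and edgeR gave none of them an unadjusted p under 0.05. Snd1, a nuclease found with the silencing complex, had 5606, 22 and 2793 counts in controls and 1951, 7136 and 2478 counts at 8 h, a log2 fold change of -0.16 ± 2.04 (SE). Stip1, an HSP90 cochaperone, stood at 0.52 ± 1.91 (SE), Ptges3, another, at 1.66 ± 1.48 (SE), and Adar, the adenosine deaminase that edits hairpins, at 1.07 ± 1.64 (SE).

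Of the 27 genes of silencing and decay 10 were tested, 6 with higher and 4 with lower values. Cnot1, the scaffold of the CCR4-NOT deadenylase, had 858, 7509 and 385 counts in controls and 6303, 1054 and 10710 counts at 8 h. Its log2 fold change was 0.50 ± 2.12 (SE). Eif4enif1, which represses capped targets, stood at 2.37 ± 2.18 (SE), with 21667 counts in 8 h library 1 and 161 in 8 h library 2. Edc4, a decapping scaffold, had 94, 18 and 32 counts in controls and 1509, 97 and 609 counts at 8 h. Its log2 fold change was 3.55 ± 1.91 (SE; edgeR adjusted p = 0.611). Its groups overlapped in CPM. Lsm14a, a processing-body protein, had 0, 0 and 51 counts in controls and 42, 196 and 49 counts at 8 h. Tnrc6b, a paralogue of Tnrc6a, had 33 to 96 counts in any library and a log2 fold change of -0.03 ± 1.62 (SE).

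Genes that tail or destroy microRNA precursors gave 2 tested members of 10, both with lower values at 8 h. Lin28a, which blocks let-7 maturation, stood at -1.30 ± 1.68 (SE), and Zc3h12a, an RNase that cuts precursor loops, at -1.39 ± 1.72 (SE). In these 5 lists SEs ran from 1.16 for Rangap1 to 3.26 for Ranbp1, on the log2 scale.

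**Figure D5:**
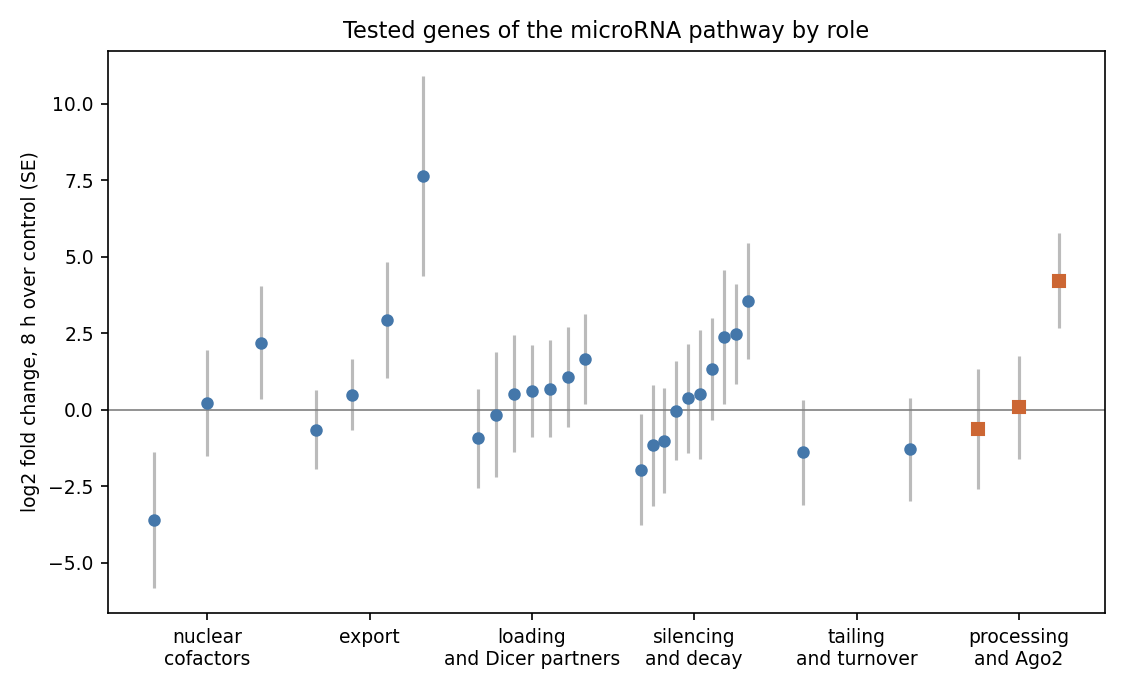
Log2 fold change of 8 h over control with edgeR's SE for the 26 tested genes of the 5 role lists (blue circles) and for Ago2, Xpo5 and Dgcr8 (orange squares). Ranbp1 at 7.64 in the export list and Srrt at -3.60 among nuclear cofactors are the extremes, and 0 of the genes passed the test.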

How the data were processed

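The authors deposited whole-number read counts per RefSeq accession for TruSeq libraries, per the labels, with reads of 50 bases from one end. The submitters' processing notes name Bowtie, R 3.4.2 and GRCm38 but give them no role. For the counting program, strand setting, multiply matching reads and row filter nothing is given in the sources used here, so counts of paralogues and overlapping genes are uncertain. Symbols came from RefSeq (GRCm38.p6; 12827 rows) or GENCODE M21 (47), and 303 rows stayed unnamed. Transcript lengths and UTRs came from GENCODE M21.

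Counts were fitted with edgeR 4.0.16 in R 4.3.3 (TMM, filterByExpr, robust quasi-likelihood F test in its default form, two-sided, Benjamini-Hochberg over 8308 rows at 0.05), with group as the only term. SE was obtained by dividing the size of the log2 fold change by the root of F. CPM used TMM-scaled totals, and r used log2 CPM with a prior count of 2. Alternatives were a replicate block, RLE scaling, DESeq2 1.42.0, other filters, the newer quasi-likelihood form and leaving out each library. The scripts were tested on simulated data whose spread was fixed beforehand and not estimated from these libraries. That check does not show how the fit behaves at the spread seen here.

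The members and lists were chosen with earlier results of these data known. Text names all members, up to 2 genes per role list by mean CPM and up to 2 by size of change, and the 3 rows most like Ago2, Xpo5 and Dgcr8. Rangap1, Xpo1, Tnrc6b, Ddx5, Ddx17, Ran, neighbours and markers were named after their values were seen. Groups of 3 allow no outlier check.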

Additional observations from a re-analysis of the deposited data

How the results depend on the processing

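With DESeq2 399 of all genes, 1 of the set (Dgcr8, adjusted p = 0.0136, where the alternatives ranged up to 0.998) and 1 other pathway gene were called, where edgeR called 0 in each case. Under the other settings, including the replicate block and each library left out, those 3 counts stayed at 0 (0 to 0). With the replicate block the log2 fold change of Xpo5 turned to -0.47. Without each library in turn it ran from -0.89 to 1.03, that of Ago2 from -2.49 to 1.40 and that of Dgcr8 from 3.52 to 5.58. The cause was not tested. Residuals of same-numbered libraries correlated at -0.0107, 0.0151 and -0.0039, which shows no pairing by replicate number over the tested rows as a whole. In CPM, Ago2, Tarbp2 and Dgcr8 kept the same order of replicate numbers in both groups, and Xpo5, Dicer1 and Tnrc6a did not. A filter at a mean of 5 CPM left no value for Dgcr8. The number of matched genes whose groups did not overlap was 2 under RLE scaling and unscaled totals and 2 to 3 without each library, Dicer1 joining without control replicate 1. The mean summed level of the set, 236.8 CPM, was 151.9 to 279.7 CPM without each library, an alternative chosen after seeing the data. Low counts limit Dgcr8, Dicer1, Tarbp2 and Tnrc6a most.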
